A study of Mus musculus with 2 samples.

Results

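Translation initiation and elongation factors are the soluble proteins that bring ribosomes to an mRNA, find its start codon and then carry the ribosome from codon to codon. The genes described here are those whose symbol starts with Eif or Eef followed by a digit and whose annotated type is protein-coding. The annotation holds 68 of them, and 63 had at least 1 read, among 15371 annotated genes with a read. The members were chosen by name, not by any measured value. Earlier results of these data were known when they and the lists of other genes below were chosen.

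Long-read RNA sequencing, in which each read can follow an mRNA from end to end, was made from the gastrocnemius, a calf muscle of mostly fast fibres. The tissue came from female B6CASTF1/J mice, the F1 hybrid of C57BL/6J and CAST/EiJ, at 2 months of age, with no treatment named. There was 1 group of 2 libraries, replicate 1 from the animal numbered 3 and replicate 2 from the animal numbered 4, each from 2 µg of RNA. A single donor identifier stands on both libraries, so whether they come from 1 or 2 animals is not certain. The p-values of Fisher's exact test below compare the reads of these 2 libraries and cover counting error only. They measure neither the spread between animals nor a difference between conditions.

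In cap-dependent initiation, eIF2 carries the initiator tRNA to the small ribosomal subunit together with eIF1, eIF1A, eIF3 and eIF5. The eIF4F complex (the cap-binding eIF4E, the scaffold eIF4G and the helicase eIF4A) brings that subunit to the capped end of the mRNA. During elongation, eEF1A delivers each aminoacyl-tRNA and eEF2 moves the ribosome on by 1 codon. Adult skeletal muscle is known for replacing eEF1A1 by its paralogue eEF1A2 after birth.

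The sequences that separate the main paralogues and splice forms are given first. The start of the coding sequence of Eef1a1 (build mm10, chr9:78480595-78480654, minus strand) and of Eef1a2 (chr2:181155347-181155406, minus strand) is shown because reads of the pair are told apart by such bases. Capitals mark the 11 of 60 bases that differ.
Eef1a1: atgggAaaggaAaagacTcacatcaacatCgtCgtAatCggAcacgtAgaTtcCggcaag
Eef1a2: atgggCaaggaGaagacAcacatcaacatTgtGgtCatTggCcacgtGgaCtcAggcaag
Over the whole coding sequence, the pair was identical at 1110 of 1386 aligned bases (80.1%), and 224 of the 276 differences fell at the third base of a codon. A stretch of Eif4a1 (chr11:69670688-69670747, minus strand) and of Eif4a2 (chr16:23108719-23108778, plus strand) is shown in the same way, with 13 of 60 bases different.
Eif4a1: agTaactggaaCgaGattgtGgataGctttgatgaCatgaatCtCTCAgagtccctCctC
Eif4a2: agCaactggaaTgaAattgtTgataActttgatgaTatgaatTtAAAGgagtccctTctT
The coding sequences of Eif4a1 and Eif4a2 were identical at 947 of 1218 aligned bases (77.8%). All sequences are GENCODE M21 transcript sequences on mm10, written 5′ to 3′ on the strand of the gene.

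Of the 10 alternative exons described below, 5 that encode protein follow, because the splice forms of Eif4h, Eef1d, Eif4g2 and Eif4enif1 differ by them. Capitals mark the exon, and lower case marks 10 bases of each neighbouring exon in the annotated transcript.
Eif4h exon (chr5:134624441-134624500, minus strand): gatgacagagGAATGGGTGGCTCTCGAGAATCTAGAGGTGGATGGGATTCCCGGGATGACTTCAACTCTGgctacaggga
Eef1d 72-base exon (chr15:75900691-75900762, minus strand): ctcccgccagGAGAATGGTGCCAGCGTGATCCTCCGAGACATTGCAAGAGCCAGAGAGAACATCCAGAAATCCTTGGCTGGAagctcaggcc
Eef1d 57-base exon (chr15:75897226-75897282, minus strand): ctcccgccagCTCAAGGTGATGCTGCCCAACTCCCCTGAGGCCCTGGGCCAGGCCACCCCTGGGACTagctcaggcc
Eif4g2 exon (chr7:111076280-111076393, minus strand): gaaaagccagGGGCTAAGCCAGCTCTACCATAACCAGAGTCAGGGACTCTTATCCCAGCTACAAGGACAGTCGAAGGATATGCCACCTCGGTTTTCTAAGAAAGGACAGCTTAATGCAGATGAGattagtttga
Eif4enif1 exon (chr11:3233988-3234059, plus strand): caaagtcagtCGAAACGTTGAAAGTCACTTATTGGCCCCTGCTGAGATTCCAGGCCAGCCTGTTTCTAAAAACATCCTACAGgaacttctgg
The junction between the first exons of Eif4a2 is shown for transcripts Eif4a2-201 and Eif4a2-203 (chr16, from 23107801 to 23108607, plus strand, introns removed), with the 3 extra bases of Eif4a2-203 in capitals.
Eif4a2-201: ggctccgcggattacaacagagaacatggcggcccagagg
Eif4a2-203: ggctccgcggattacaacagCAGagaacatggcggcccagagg

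Replicate 1 held 1349298 reads and replicate 2 held 1359923. Across all genes, 9341 had at least 10 reads summed and were tested. Of these, 730 (7.82%) passed at 0.05, after Benjamini-Hochberg adjustment, when the gene's reads were set against the rest of each library (Fisher's exact test, two-sided). The markers of fast muscle fibres were abundant, with 184666 and 178232 CPM (reads scaled to a library total of 1000000) summed over 7 genes, with 3 of them higher and 4 lower in replicate 2. Most of this sum was Atp2a1 alone, with 149332 and 143096 CPM. Markers of other parts of the tissue differed between the libraries. All 7 slow fibre markers were higher in replicate 2 (1183 and 8629 CPM summed). All 6 adipocyte markers (1127 and 107 CPM) and all 6 nerve and Schwann cell markers (671 and 97.1 CPM) were lower in replicate 2, with Retn at 0 there. Of 5 smooth muscle markers, 4 were lower in replicate 2 (221 and 89.0 CPM), as was 1 of 5 endothelial (186 and 132 CPM) and 1 of 5 leukocyte markers (74.9 and 50.7 CPM, Ptprc at 0 in replicate 1). Fibroblast markers summed to 1891 and 1854 CPM, with Col1a2 higher and Col3a1 lower in replicate 2, and red blood cell markers to 107 and 124 CPM, with Alas2 at 0 in replicate 2. In bulk tissue, fewer cells of a type and less RNA per cell cannot be told apart.

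The 68 genes took 9849 reads in replicate 1 and 9575 in replicate 2. Their share of all reads was 0.717% ± 0.0183 (SD, n = 2), with 95% Wilson intervals of 0.716% to 0.744% in replicate 1 and 0.690% to 0.718% in replicate 2. These and all intervals below cover counting error only. The 10 most abundant genes held 56.1% and 57.6% of the factor reads. Reads were counted per gene and not divided by length, since a long read can follow a whole mRNA. Whether several reads came from 1 molecule, and how far long mRNAs were lost before sequencing, was not measured.

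**Figure D1:**
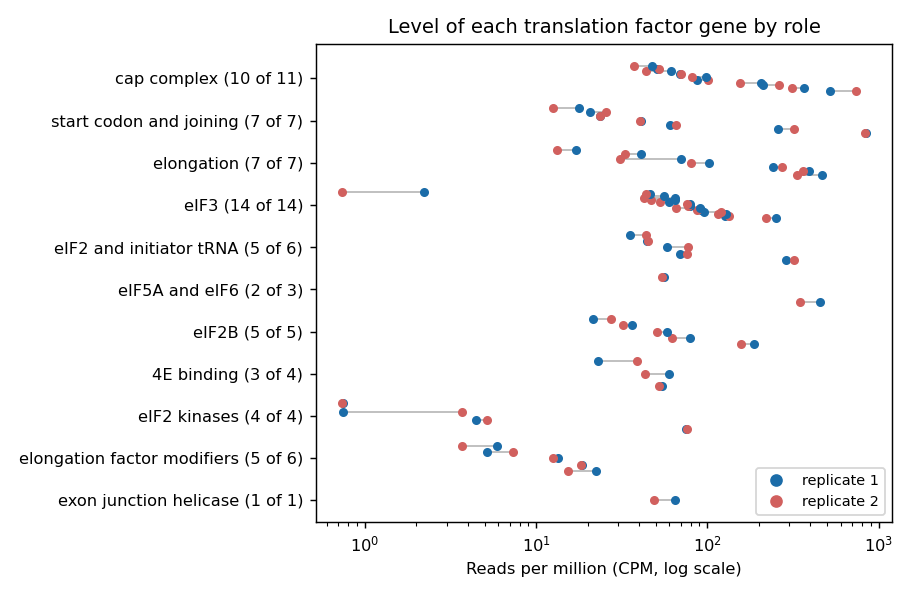
Level of each factor gene in CPM (log axis), with 1 row per role group and 1 blue and 1 red point per gene for replicates 1 and 2, joined by a grey line. Numbers in brackets give the genes with reads of all genes in the group; the cap complex held the highest summed level in both libraries (1722 and 1849), and the lowest points are Eif2ak2, Eif2ak4 and Eif3j2.

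Among the factors that select the start codon and join the subunits, Eif1, which guards start codon fidelity, led all 68 genes. It had 1144 reads in replicate 1 and 1127 in replicate 2, which is 838 ± 13.5 CPM (SD, n = 2), and ranked 93rd of all genes with a read. Its paralogue Eif1b had 32 reads in each library. Eif5, which makes eIF2 hydrolyse GTP at the start codon, had 351 and 438 reads. That is 260.1 and 322 CPM, a fold of 1.24 (95% interval 1.08 to 1.42) in replicate 2 over replicate 1, which passed the test (adjusted p = 0.042 by Fisher's exact test). The call for Eif5 was lost without mitochondrial and spike-in reads (adjusted p = 0.0806 by Fisher's exact test), without models of 1 read (0.0684) and with no minimum of reads (0.0689). Eif1ax, which supports scanning, had 82 and 89 reads, and Eif5b, the GTPase of subunit joining, had 55 in each. The group held 17.4% and 18.7% of all factor reads.

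All genes of the eIF2 complex and its helpers had reads apart from the Y-linked subunit. Eif2s2, the beta subunit, had 388 and 437 reads, while Eif2s1, the alpha subunit that stress kinases phosphorylate, had 78 and 105. Eif2s3x, the X-linked gamma subunit, had 93 and 103 reads and its Y-linked copy Eif2s3y had 0 in both, in female mice. Eif2a and Eif2d, which can handle initiator tRNA outside the main pathway, had 48 and 60 reads and 60 and 61 reads. No gene of this group passed the test, and all 5 tested had a log2 ratio above 0 (median 0.16 on the log2(CPM + 1) scale). Over all tested factor genes the median was -0.07, and over all 9341 genes it was -0.01, with 52.2% of them below 0.

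All 5 subunits of eIF2B, the exchange factor that reloads eIF2 with GTP, had reads. The catalytic subunit Eif2b5 was the most abundant with 254 and 215 reads (173 ± 21.3 CPM, n = 2), followed by Eif2b4 with 107 and 85. Of the 4 kinases of eIF2 alpha, Eif2ak1, the haem-regulated kinase, had 101 and 104 reads. The endoplasmic reticulum kinase Eif2ak3 had 6 and 7, the amino acid sensor Eif2ak4 had 1 and 5, and the double-stranded RNA sensor Eif2ak2 had 1 in each. No subunit of eIF2B and no kinase passed the test, and Eif2ak4 and Eif2ak2 had too few reads to be tested.

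All 14 genes of eIF3, the scaffold of the initiation complex, had reads, and 13 were tested. Eif3b led them with 341 and 300 reads (237 ± 22.7 CPM, n = 2). Eif3j1 had 172 and 182 reads, Eif3f 174 and 157, and Eif3a 129 and 163. Eif3l (124 and 118), Eif3e (123 and 89), Eif3h (107 and 105) and Eif3m (107 and 104) completed the eIF3 genes among the 25 highest factors. None of the 13 passed the test, and 11 had a log2 ratio below 0 (median -0.16). Eif3j2 had 3 and 1 reads, all on single-exon models that are annotated transcripts of the gene. Its aligned coding sequence is identical to that of Eif3j1 at all 783 bases, so reads of that pair cannot be assigned with certainty.

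Within the cap complex, Eif4g2 was the highest gene and differed most clearly between the libraries. Eif4g2 encodes DAP5, a relative of eIF4G that lacks the part that binds eIF4E. It had 707 reads in replicate 1 and 1001 in replicate 2, which is 524 and 736 CPM, a fold of 1.40 (95% interval 1.28 to 1.55; adjusted p = 3.13e-10 by Fisher's exact test). Eif4g1, the main scaffold, had 284 and 355 reads and did not pass (adjusted p = 0.0783 by Fisher's exact test), but was called without models of 1 read (0.0149). Eif4g3 had 69 and 71. Eif4h, which stimulates the helicase, had 276 and 210 reads, or 205 and 154 CPM, a fold of 0.755 (0.631 to 0.903; adjusted p = 0.0344 by Fisher's exact test). With annotated transcripts alone, Eif4h had 244 and 178 reads and was not called (adjusted p = 0.059 by Fisher's exact test), nor was it with no minimum of reads (0.0564). Eif4b, which acts with the same helicase, had 132 and 110 reads.

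The other cap complex genes did not pass the test. Eif4a2 had 498 and 424 reads (adjusted p = 0.108 by Fisher's exact test) and was called on spliced models alone (0.0425). Eif4a1 had 83 and 60 reads. Eif4e had 118 and 138 reads, Eif4e2, which binds the cap without binding the scaffold, had 64 and 51, and Eif4e3 had 93 and 95. Eif4a3, a helicase of the exon junction complex, had 87 and 66. Of the proteins that hold eIF4E away from the scaffold, Eif4ebp1 had 81 and 59 reads and Eif4ebp2 73 and 71. Eif4enif1, which carries eIF4E into the nucleus and binds it in cytoplasmic granules, had 31 and 53 reads. It was not called over all models (adjusted p = 0.168 by Fisher's exact test) but was called on annotated transcripts alone, where it had 6 and 25 reads (adjusted p = 0.0102 by Fisher's exact test).

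Eif5a, the factor with the modified amino acid hypusine that relieves stalled ribosomes, had 617 and 472 reads. That is 457 and 347 CPM, lower in replicate 2 by a fold of 0.759 (0.673 to 0.856; adjusted p = 0.00022 by Fisher's exact test). Eif6, which keeps the large subunit from joining too early, had 75 and 74 reads.

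Of the 4 genes called lower in replicate 2, Eef1a1 and Eef2 are elongation factors and had the lowest folds. Eef2 had 628 and 454 reads, or 465 and 334 CPM, a fold of 0.717 (0.636 to 0.809; adjusted p = 3.21e-06 by Fisher's exact test). Eef1a1 (chromosome 9, 78478449 to 78489151) had 95 and 42 reads, or 70.4 and 30.9 CPM, a fold of 0.439 (0.306 to 0.629; adjusted p = 0.000174 by Fisher's exact test). Eef1a2 (chromosome 2, 181147653 to 181157014) had 325 and 370 reads, or 241 and 272 CPM, and did not pass (adjusted p = 0.431 by Fisher's exact test). Of the subunits that recharge eEF1A with GTP, Eef1g had 528 and 490 reads, Eef1d 138 and 109, and Eef1b2 55 and 45, and none of them was called. Eef2 was not called by edgeR's exact test with TMM factors and an assumed biological spread of 10% (adjusted p = 0.451). The elongation group also counts Eef1e1, which had 23 and 18 reads and was not called. In this group, 2 of 7 genes were lower in replicate 2 and none was higher, against 3.56% and 4.25% of all tested genes. A log2 ratio below 0 was found in 6 of the 7 (median -0.34), against 52.2% of all tested genes.

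Eef2k, the kinase that inhibits eEF2, had 30 and 21 reads, and Eef2kmt, a methyltransferase of eEF2, had 18 and 17. Of the methyltransferases of eEF1A, Eef1akmt1 had 25 reads in each library, Eef1akmt2 had 7 and 10, Eef1akmt4 had 8 and 5, and Eef1akmt3 had 0 in both. None of the 5 modifiers with reads was called.

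In all, 6 of 60 tested factor genes (10%) were called, against 7.82% of all tested genes. Of these, 2 were higher in replicate 2 (Eif4g2 and Eif5; 4.25% of all tested genes) and 4 were lower (Eef1a1, Eef2, Eif5a and Eif4h; 3.56% of all). The share of factor genes called is close to that of all genes. At an unadjusted p under 0.05, 11 factor genes (18.3%) passed, against 17.8% of all genes. A log2 ratio below 0 was found in 39 of the 60 (65.0%), against 52.2% of all tested genes. Adipocyte, nerve and smooth muscle markers were also lower in replicate 2, and slow fibre markers higher. With 2 libraries, any called gene shares its direction with some of these markers, whatever the reason. The part of those cell types in the calls was not tested and cannot be told apart in this design. With edgeR's exact test and an assumed biological spread of 10%, Eef1a1 alone was called (adjusted p = 0.0302).

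**Figure D2:**
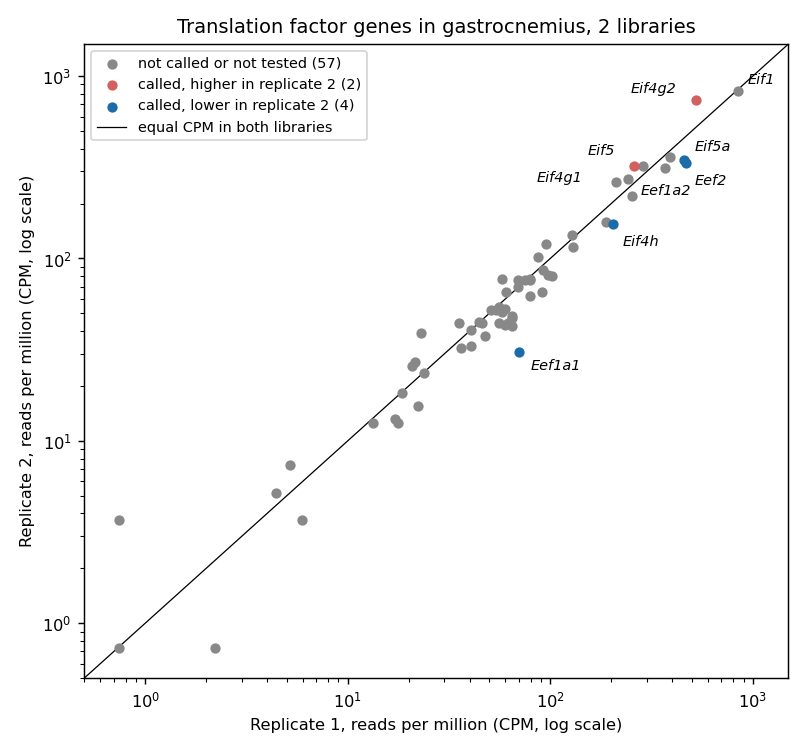
Each point is 1 factor gene with reads in both libraries, at its CPM in replicate 1 (x axis) and replicate 2 (y axis), both on log scales. Red points are the 2 genes called higher in replicate 2, blue points the 4 called lower, grey points the other 57, and the line marks equal levels; most points lie close to the line and Eef1a1 lies farthest from it among the called genes.

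Of the 68 genes, 5 had no read in either library. A count of 0 allows up to 2.22 CPM in replicate 1 and 2.21 in replicate 2 (3 counts). Eif4e1b is the form of eIF4E found in oocytes, and Eif5a2, Eif4ebp3 and Eif2s3y are paralogues of genes that had reads. Eef1akmt3 is a methyltransferase of eEF1A. A further 3 genes (Eif2ak4, Eif3j2 and Eif2ak2) had reads but fewer than 10 in sum.

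The balance within paralogue pairs was read as the share of the pair's reads on the second gene. For Eef1a1 and Eef1a2, the summed reads were alike, 420 in replicate 1 and 412 in replicate 2. Eef1a2 held 77.4% of them in replicate 1 (95% Wilson interval 73.1% to 81.1%) and 89.8% in replicate 2 (86.5% to 92.4%), or 83.6% ± 8.79 (SD, n = 2). The share was 12.4 percentage points higher in replicate 2 (Newcombe interval 7.44 to 17.4). The 2 intervals did not overlap, and in both libraries Eef1a2 was the major form. Annotated coding transcripts of the pair are at most 1794 and 2084 bases long. Of the Eef1a2 reads, 29 and 7 were on single-exon models, and with spliced models alone the share was 82.7% ± 9.85 (n = 2). Eef1a1 has 13 near-identical copies in the annotation (at least 90% identity over at least 50% of the coding sequence), none with a read.

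Eif4a2 held 85.7% (82.6% to 88.3%) and 87.6% (84.4% to 90.2%) of the reads of Eif4a1 plus Eif4a2, and the interval of the difference holds 0 (1.89 points, -2.27 to 5.95). The processed pseudogene Eif4a-ps4 on chromosome 1, which matches the coding sequence of Eif4a1 at 99.9% of 1218 bases, had 61 and 32 reads. Reads of the pseudogene and of Eif4a1 can therefore not be told apart with certainty. With them added to Eif4a1, the Eif4a2 share was 77.6% and 82.2% (79.9% ± 3.25, n = 2). Eif4a1 with them had 144 and 92 reads and was lower in replicate 2 (log2 ratio -0.65; adjusted p = 0.0132 by Fisher's exact test); this count was chosen after the reads had been seen.

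Eif4g2 held 71.3% and 73.8% of the reads of Eif4g1 plus Eif4g2, and Eif4g3 held 19.5% and 16.7% of Eif4g1 plus Eif4g3. Eif4h held 67.6% and 65.6% of Eif4b plus Eif4h. In the cap-binding pairs, Eif4e2 held 35.2% and 27.0% against Eif4e, and Eif4e3 held 44.1% and 40.8%. Eif4ebp2 held 47.4% and 54.6% against Eif4ebp1, but 64 and 68 of its 73 and 71 reads were on unspliced single-exon models, and with annotated transcripts alone its share was 7.06% ± 3.02 (n = 2). Eif1b held 2.72% and 2.76% against Eif1. Eif5a2 and Eif2s3y had 0 reads against 617 and 472 of Eif5a and 93 and 103 of Eif2s3x. That allows an Eif5a2 share of up to 0.486% and 0.636%, and an Eif2s3y share of up to 3.23% and 2.91%. Of the 12 pairs, the difference between libraries excluded 0 only for Eef1a1 and Eef1a2; no test was made of the others, and their intervals do not show that the libraries are alike.

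**Figure D3:**
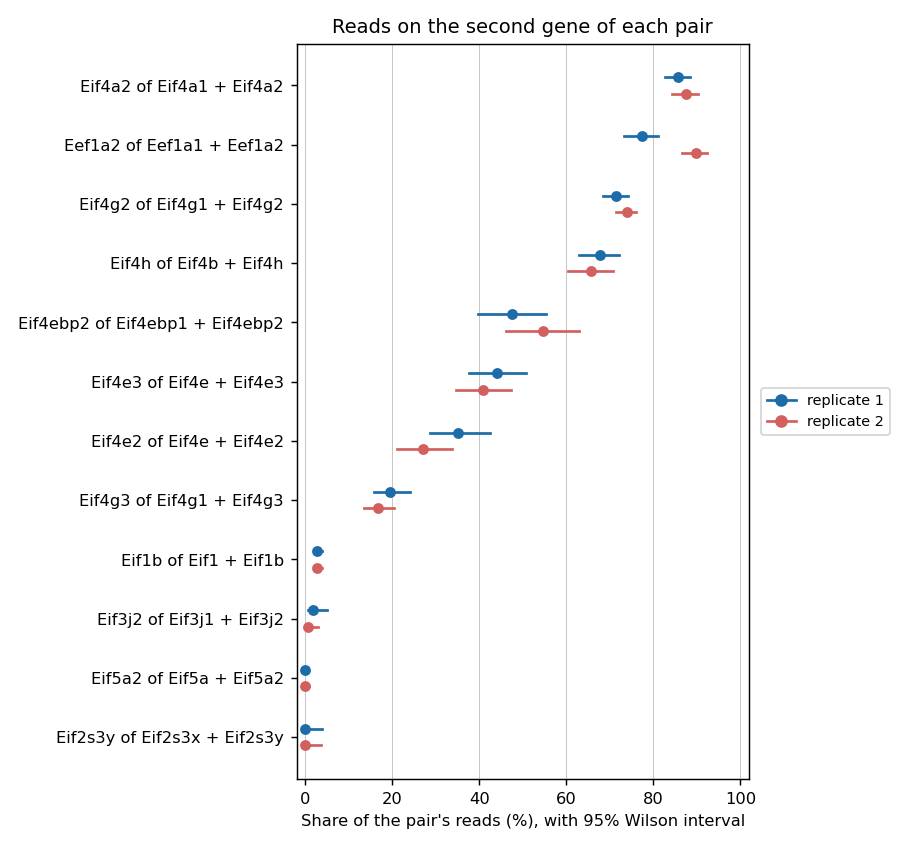
Share of a pair's reads on its second gene (x axis, %), with 1 row per pair, blue for replicate 1 and red for replicate 2, and bars for the 95% Wilson interval. The bars of the libraries are apart for Eef1a2 alone, and the rows run from Eif4a2 and Eef1a2, the major forms of their pairs, down to Eif5a2 and Eif2s3y at 0.

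Most factor reads matched an annotated transcript. The share was 82.4% in replicate 1 and 81.5% in replicate 2 (82.0% ± 0.636, n = 2), against 65.6% and 65.1% of reads of all protein-coding genes. Reads on models that use a splice site outside the annotation made up 2.10% and 2.33% of factor reads, against 18.7% and 18.1% over all protein-coding genes. These shares weigh genes by their reads, and Atp2a1 alone had 201493 and 194599 of 1260176 and 1272169 protein-coding reads. A share per gene was not taken for such models. Incomplete splice matches made up 10.9% ± 0.0873 (n = 2) of factor reads, against 8.12% and 8.94% over all protein-coding genes. These models hold only a part of the run of exons of an annotated transcript. Truncated reads and other transcript starts were not told apart among them. Counted per gene, where both libraries had 20 reads or more, the median annotated share was 87.9% over 54 factor genes and 83.3% over 4910 protein-coding genes.

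Annotated shares were lowest in a few genes, several of them long. Eif4g1 had 4.07% of its reads on annotated transcripts, and its most abundant structure was an unannotated 33-exon model with 36 and 49 reads (12.7% and 13.8% of the gene). Eif4g3 had 4.29%, with 24-exon incomplete splice matches in front. Eif4ebp2 had 7.64%, Eif4enif1 36.9%, Eef1d 37.2% and Eef2k 47.1%. Eef2, with 63.6%, had incomplete splice matches on 33.2% of its reads. At the other end, Eif2s2 had 98.4% and Eif1 98.4%. The relation has exceptions, since Eif3j1, with a transcript of 5413 bases, had 89.5%. Across the 54 genes, Spearman's rho between the longest annotated coding transcript and the annotated share was -0.62, and across 4910 protein-coding genes it was -0.45; genes are not independent replicates and share the libraries.

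**Figure D4:**
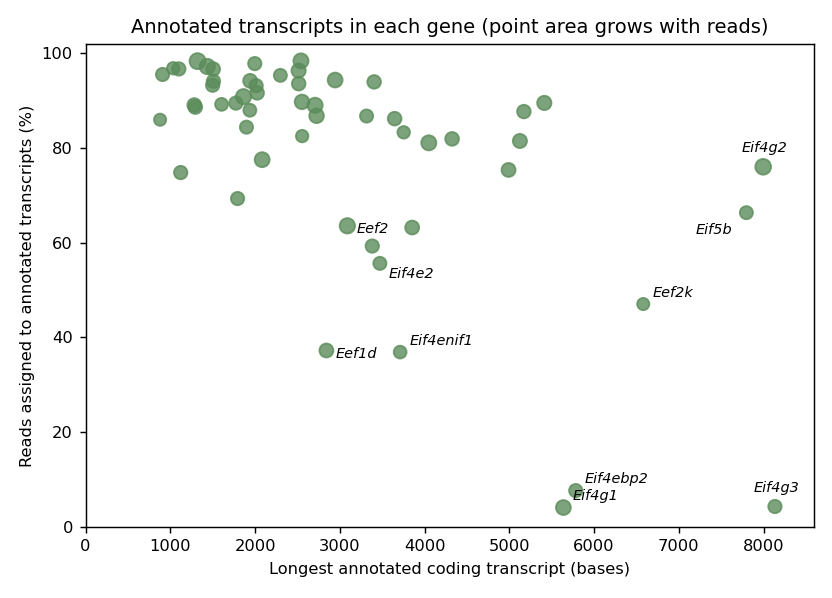
Share of a gene's reads on annotated transcripts (y axis, %) against the length of its longest annotated coding transcript (x axis, bases) for the 54 factor genes with 20 reads or more in both libraries. Each point is 1 gene, with an area that grows with its reads; genes no longer than Eef1a1 (1794 bases) lie at 69.3% or higher, and the 3 lowest points are Eif4g1, Eif4g3 and Eif4ebp2.

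The most abundant structure of each gene, taken as the one with the highest mean share over both libraries, held a median of 86.7% of the gene's reads over the 54 genes, and it was annotated in 48 of them. In Eif4enif1 that rule takes an unannotated model with 14 and 15 reads, while the annotated Eif4enif1-203 had 6 and 25. Unannotated single-exon models of a gene were pooled as 1 structure, which came first in Eif4ebp2 with 64 and 68 reads. The share of the most abundant structure was tested by Fisher's exact test with Benjamini-Hochberg adjustment over 5025 genes. Of these, 82 (1.63%) were called. None of the 54 factor genes was called, and 2 had an unadjusted p under 0.05. These 2 were Eif5b (31 of 55 and 42 of 55 reads) and Eif1 (1127 of 1144 and 1096 of 1127). In Eef1d, Eif4e2 and Eif4enif1, as in Eif4g1, the most abundant structure was a combination of annotated splice sites that no annotated transcript holds. It had 52 and 49 reads in Eef1d and 17 and 11 in Eif4e2. In Eif4e, an unannotated 4-exon model that begins inside the gene had 17 and 25 reads beside 89 and 103 on transcript Eif4e-204.

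Internal exons were scored as included where a spliced read held the exon with both its ends, and as skipped where an intron spanned it whole. Reads with a shifted end of the exon counted as neither, so the counts below leave out choices between nearby splice sites. Of 526 exons measured in 52 factor genes, 498 were included in more than 95% of reads, 18 in fewer than 5%, and 10 (1.90%) lay between and count as alternative. Over all genes, 1973 of 43007 exons (4.59%) did. Among the alternative exons of all genes, 8 (0.405%) passed Fisher's exact test after adjustment, and none of the 10 factor exons did, nor did any at an unadjusted p under 0.05.

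In Eif4h, the 60-base exon printed above adds 20 codons without moving the frame. It was included in 57 of 251 informative reads of replicate 1 (22.7%, 95% Wilson interval 18.0% to 28.3%) and 34 of 181 of replicate 2 (18.8%, 13.8% to 25.1%), so transcript Eif4h-201, which skips it, was the main form. In Eif4g2, the 114-base exon (38 codons) was included in 598 of 685 and 855 of 980 reads (87.3% and 87.2%). The difference was -0.05 points (interval -3.25 to 3.28), while the gene's reads differed. In Eif4enif1, the 72-base exon was included in 23 of 30 and 43 of 50 reads (81.3% ± 6.60, n = 2).

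Eef1d, the delta subunit of the exchange complex, had 2 alternative coding exons, and single reads covered both. The 72-base exon was included in 114 of 130 and 93 of 104 reads (88.6% ± 1.22, n = 2). The 57-base exon was included in 67 of 130 and 66 of 103 (51.5% and 64.1%, 57.8% ± 8.87, n = 2). Both exons together were in 56 and 58 reads, the 72-base exon alone in 58 and 34, the 57-base exon alone in 11 and 8, and neither in 5 and 3. The exons were thus not mutually exclusive. A 1130-base annotated coding exon of Eef1d, which belongs to the long form of the protein, was in 1 of 129 and 1 of 100 covering reads.

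Eif4a2 had a choice of acceptor sites 3 bases apart at its second exon, printed above, which was singled out after the transcript counts had been seen. The longer exon, which adds 1 codon, was in 122 of 474 and 99 of 385 junction reads (25.7% in each; difference -0.02 points, interval -5.84 to 5.89). This form was annotated as Eif4a2-203, with 117 and 96 reads beside 324 and 269 on Eif4a2-201. A long read places such a small shift less surely than a whole exon, and read accuracy was not measured here.

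The remaining alternative exons were in Eif5a, Eif4e2, Eif2d, Eif2a and Eif2b3. The 94-base exon of Eif5a is non-coding in its annotated transcripts and was included in 52 of 604 and 42 of 466 reads (8.61% and 9.01%). The 79-base exon of Eif4e2, coding in part in 1 annotated transcript, was in 26 of 41 and 27 of 35. The exons of Eif2d (150 bases), Eif2a (119 bases) and Eif2b3 (112 bases), which also encode protein in annotated transcripts, were included in means of 93.3%, 94.5% and 94.4% of reads. A 21-base annotated coding exon of Eif4g1 is shown because it was in none of 121 and none of 159 covering reads; a count of 0 allows up to 2.48% and 1.89%.
Eif4g1 exon (chr16:20674786-20674806, plus strand): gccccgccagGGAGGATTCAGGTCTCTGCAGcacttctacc

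**Figure D5:**
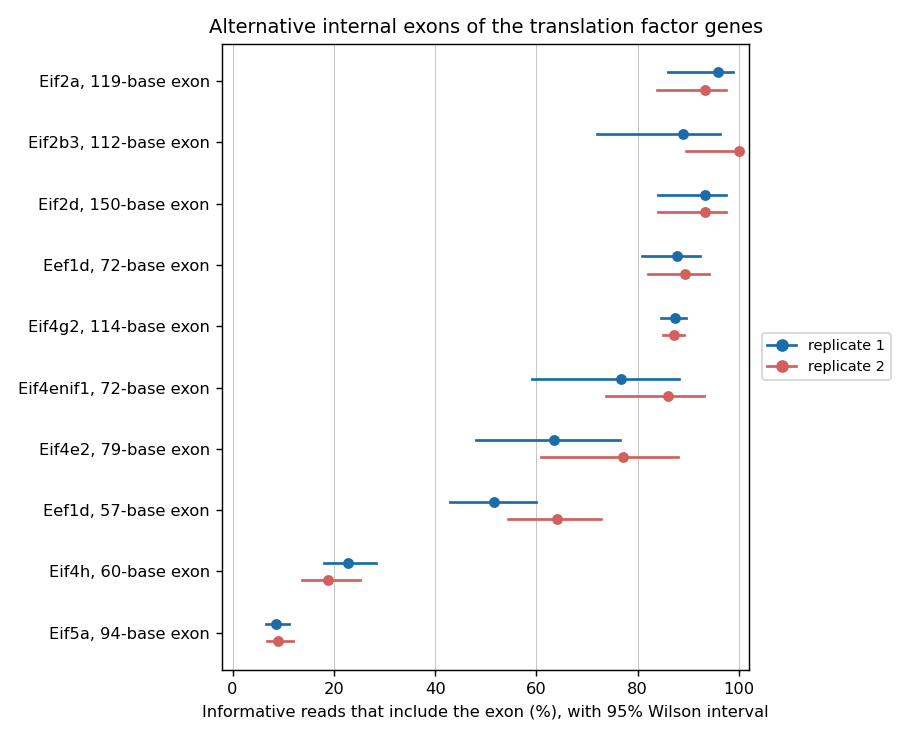
Share of informative reads that include each alternative internal exon (x axis, %), with 1 row per exon, blue for replicate 1 and red for replicate 2, and bars for the 95% Wilson interval. The bars of the libraries overlap for all 10 exons, from the Eif5a exon near 9% to the Eif2a exon above 90%.

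Genes that work beside these factors were also examined. Of 43 genes in the lists of mitochondrial factors, termination and recycling, poly(A) and cap partners, eIF4E and eIF2 signalling, and factor partners, 41 were tested. None was higher in replicate 2 and 1 was lower, against 4.25% and 3.56% of all tested genes. The gene was Paip1, a partner of the poly(A)-binding protein, with 31 and 12 reads (log2 ratio -1.29; adjusted p = 0.0466 by Fisher's exact test). Mknk2, a kinase of eIF4E, was the most abundant of the lists with 1034 and 980 reads. Atf4, which is translated when eIF2 alpha is phosphorylated, had 38 and 58 reads, and Ddit3 had 10 and 20. In the other direction, Asns had 9 and 5 reads, and Trib3, with 2 and 1, had too few to be tested. Rps6kb2, a kinase of the mTOR pathway, had 47 and 23 reads, while Rps6kb1 had 33 and 55. None of these was called (lowest adjusted p = 0.0502 by Fisher's exact test, for Rps6kb2). The median log2 ratio of the 41 was 0.12, against -0.01 over all tested genes.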

How the data were processed

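Counts as deposited are whole numbers of long reads assigned to transcript models by the authors, with no normalization. Per the file headers and deposited notes, the build is mm10 with GENCODE M21, and the source named in the annotation is TALON. For the aligner and the read filters, the entry is: not given in the sources used here. Exon coordinates and model lengths are in bases. All 55536 annotated genes of the deposited files were found in the M21 reference, whose gene coordinates, coding regions and sequences were used.

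Reads were summed per gene, and CPM is reads scaled from the library total (1349298 and 1359923) to 1000000. Fisher's exact test, Benjamini-Hochberg adjusted at 0.05, was run on genes with 10 or more reads summed (scipy 1.17.1, statsmodels 0.14.6). Log2 ratios used CPM plus 1. Shares carry 95% Wilson intervals. Dominant structures needed 20 reads and exons 20 informative reads in each library, with alternative meaning 5% to 95%. Alternatives used edgeR 4.0.16 (dispersion 0.01) with TMM or the size factors of DESeq2 1.42.0. Copies were sought with blastn 2.17.0 and coding pairs aligned with Biopython 1.88. The tests were tried on simulated counts.

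Values are given for both genes of each pair, the 25 highest genes, called genes and genes with an alternative exon. Members and lists were chosen with earlier results of these data known.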

Additional observations from a re-analysis of the deposited data

Results flagged for a closer look

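The processed pseudogene Eif4a-ps4 lies outside the protein-coding genes described above and yet had 61 reads in replicate 1 and 32 in replicate 2, above the 3 counts that a count of 0 allows. It was lower in replicate 2 (log2 ratio -0.91; adjusted p = 0.0358 by Fisher's exact test), and its part in the reads of Eif4a1, which had 83 and 60, was not tested.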

How the results depend on the processing

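The Fisher's exact tests compare 2 libraries and leave out the spread between animals. With edgeR's exact test at an assumed dispersion of 0.01, the calls fell from 6 to 1 factor gene with either scaling, and from 730 to 175 genes with TMM factors and to 176 with the size factors of DESeq2. The other 5 factor genes called by Fisher's test then had adjusted p from 0.351 to 0.791 by edgeR. Under the 6 other planned settings of the gene test, 4 to 7 factor genes were called. Eif5 had adjusted p = 0.0806 without mitochondrial and spike-in reads. No paired analysis was possible because the study has 1 group, and with 1 library left out no gene test can be made.

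With annotated transcripts alone, shares moved to 24.99% for Eif4e2, 47.7% for Eif4e3, 7.06% for Eif4ebp2, 98.0% for Eif4g2, 2.70% for Eif1b and 73.2% for Eif4h. With spliced models alone, they moved to 7.42% for Eif4ebp2 and 0% for Eif3j2. The 0% for Eif3j2 follows from the setting, since all its reads were on single-exon models. Without models of 1 read, they moved to 13.0% for Eif4g3 and 2.66% for Eif1b. With the reads of Eif4a-ps4 added, a setting chosen after seeing the data, the Eif4a2 share was 79.9%. The share of all reads on factor genes was 0.907% on annotated transcripts, 0.775% on spliced models and 0.738% without mitochondrial and spike-in reads. The annotated share of factor reads was 84.2% on spliced models and 84.7% without models of 1 read. The Eef1a2 share lay between 77.4% and 89.8% with either replicate left out. Apart from that of Eif3j2, the cause of these shifts was not tested. Of 228 log2 ratios of single genes under other settings, 73 carried a test of their own (annotated transcripts alone, or without mitochondrial and spike-in reads): 2 lost the call and 1 gained it. A change of sign was found in 6, none of them called. On annotated transcripts, the ratio became 0.0083 for Eif1, 0.047 for Eif3m and 0.046 for Eif1b. Without mitochondrial and spike-in reads, it became -0.011 for Eif4e3, -0.00065 for Eif4g3 and -0.018 for Eif2d.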
